A study of Mus musculus with 26 samples.

Results

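Mouse oocytes that lacked both Dnmt3a and the low-complexity domain (LCD) of Tet3 were compared with oocytes that lacked Dnmt3a alone. The double knockout (DKO) and the Dnmt3a knockout (Dnmt3a KO) had 2 libraries each, chosen by their labels, which makes 4 of the 26 libraries of the series, and all genes that passed a filter on low counts were read. Each library held polyadenylated RNA from a pool of 10 oocytes at the germinal vesicle (GV) stage, fully grown and still held before meiosis resumes. By the labelled genotypes, DKO oocytes carried floxed Dnmt3a, the floxed Tet3 LCD and the Zp3-Cre transgene, and Dnmt3a KO oocytes carried floxed Dnmt3a and Zp3-Cre, with no floxed Tet3 allele named. Cre recombinase under the Zp3 promoter acts in growing oocytes, so both groups share the transgene and the loss of Dnmt3a, and differ in the Tet3 allele. All 4 libraries belong to the third of 3 batches named in the labels. A second pair of groups was used to set the results beside the loss of the same domain with Dnmt3a intact: 7 libraries with the floxed LCD and Zp3-Cre (LCD KO) and 6 with the floxed LCD and no Cre (WT), which share no library with the first pair. The labels give no age for the animals and do not say how many animals a pool came from. The p-values therefore measure the spread between pools, which may share animals. That spread was estimated over 22 libraries, which also include HD mutant libraries 1 to 3 and 2 libraries labelled Tet3 KO.

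Dnmt3a is the enzyme that, with its cofactor Dnmt3l, lays down new cytosine methylation while the oocyte grows. Tet3 is the main TET dioxygenase of the oocyte and oxidizes methylated cytosine, above all in the zygote after fertilization. The fully grown GV oocyte is close to transcriptionally silent, so its RNA is the store built up during growth. The comparison asks whether losing the Tet3 domain changes that store when the methyltransferase is already absent.

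Depth was modest and similar in the 2 groups, with 3409979 and 2653218 counts in the DKO libraries and 2558479 and 4144414 in the Dnmt3a KO libraries, and between 13908 and 14535 genes detected. Levels are given as CPM, counts scaled to a common library total after adjustment by TMM factors, which correct for differences in library composition. CPM compares a gene between libraries and not 1 gene with another, since it is not divided by transcript length. Defining oocyte markers were abundant in all 4 libraries: the 12 GV oocyte genes summed to 23277 and 19976 CPM in DKO and 22362 and 19606 CPM in Dnmt3a KO. The granulosa and cumulus markers Foxl2 and Amhr2 were among 7 of 26 with 0 counts in the 4 libraries, and the 26 markers of those cells summed to 85.3 and 97.6 CPM in DKO and 86.2 and 102 CPM in Dnmt3a KO. That list holds Cyp19a1 and Nr5a2, at 29.4 and 33.3 CPM and 23.3 and 24.6 CPM in DKO and at 31.1 and 33.0 CPM and 24.4 and 24.6 CPM in Dnmt3a KO. Theca and stroma markers (14 genes) summed to 27.6 and 28.6 CPM in DKO and 22.6 and 32.8 CPM in Dnmt3a KO. Blood and immune markers (23 genes in the table) summed to 167 and 199 CPM in DKO and 152 and 209 CPM in Dnmt3a KO, and none of the 3 other-cell lists had a member that passed the test.

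Of 11794 genes tested, 235 differed between DKO and Dnmt3a KO (1.99%), 126 higher in DKO (1.07%) and 109 lower (0.924%), by edgeR's quasi-likelihood test with a Benjamini-Hochberg adjusted p below 0.05. The changes were large where they were called: 196 of the 235 genes were at least 2-fold apart, 104 higher and 92 lower, and the median size of a called change was 1.5 on the log2 scale. Across all genes tested, the median log2 fold change was -0.00, so the 2 groups were centred on each other. In all 235 genes both DKO libraries lay on the same side of both Dnmt3a KO libraries. Such separation was common among all genes tested, at 20.6% with both DKO libraries higher and 18.8% with both lower. A total of 1809 genes had an unadjusted p below 0.05.

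**Figure D1:**
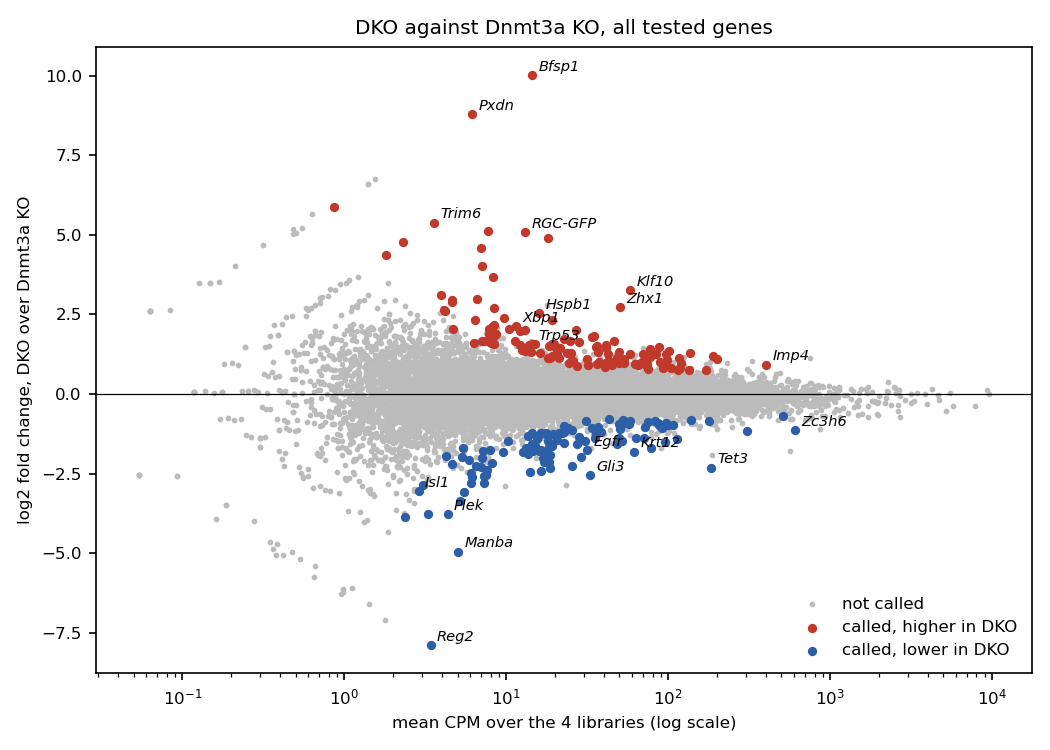
Log2 fold change of DKO over Dnmt3a KO (vertical) against the mean CPM over the 4 libraries (horizontal, log scale), 1 point per gene tested. Red points mark the 126 genes called higher in DKO and blue points the 109 called lower; named genes include Bfsp1 and Pxdn, which had 0 counts in both Dnmt3a KO libraries, and Reg2, which had 0 in both DKO libraries.

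The small groups limit these counts. When 1 of the 4 libraries was left out, 78 to 115 genes passed, with the lone library assumed to vary like the other groups: 78 without Dnmt3a KO 2, 85 without DKO 2, 86 without DKO 1 and 115 without Dnmt3a KO 1. All 235 genes kept the sign of their change in each of these fits, and 25 of them passed in all 4, 14 higher and 11 lower. Leaving out a library could not reverse a sign, since the groups of all 235 genes did not overlap. Without the batch term 20 genes passed, among them Klf10, Zhx1 and Pxdn, while Tet3 did not (adjusted p = 0.24).

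Of the targeted genes, Tet3 separated the groups. It stood at 66.1 and 57.5 CPM in the DKO libraries, against 236 and 377 CPM in the Dnmt3a KO libraries, and fell by 2.31 ± 0.38 on the log2 scale (standard error; adjusted p = 0.00227). Both DKO libraries lay far under both Dnmt3a KO libraries. Gene-level counts do not separate less Tet3 RNA from RNA that lacks the stretch encoding the domain, and in a pool of oocytes fewer oocytes with the RNA and less RNA in each oocyte cannot be told apart. Dnmt3a, deleted on both sides, had 100 and 97.9 CPM in DKO and 133 and 107.5 CPM in Dnmt3a KO, a log2 difference of -0.28 ± 0.21 (adjusted p = 0.593). In the batch 3 libraries that keep the gene it stood at 391 ± 34.9 CPM in LCD KO and 331 ± 26.3 CPM in WT (SD, n = 2 each). The other methylation enzymes did not pass: Dnmt1, which maintains methylation, had 710 and 473 CPM in DKO and 521 and 770 CPM in Dnmt3a KO, and Dnmt3b had 22 and 25.2 CPM in DKO and 11.8 and 15.1 CPM in Dnmt3a KO (adjusted p = 0.228).

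The clearest rise was that of Klf10, a zinc finger repressor of transcription that TGF-beta induces. Klf10 had 99.5 and 111 CPM in the DKO libraries and 11.1 and 10.8 CPM in the Dnmt3a KO libraries. The groups were far apart and each pair of libraries lay close together. The log2 fold change was 3.27 ± 0.24, or 9.62-fold (adjusted p = 1.28e-09), and Klf10 passed in all 4 fits that left out a library. Zhx1, a zinc finger and homeobox repressor, followed the same pattern with 107 and 67.3 CPM in DKO and 14.8 and 11.9 CPM in Dnmt3a KO. Its log2 fold change was 2.73 ± 0.34 (adjusted p = 4.75e-05), again in all 4 such fits. In batch 3 Klf10 stood at 77.6 ± 10 CPM in LCD KO and 7.14 ± 0.19 CPM in WT, and Zhx1 at 59.1 ± 11.7 CPM in LCD KO and 6.55 ± 0.12 CPM in WT (SD, n = 2 each). Neither gene's change differed between the 2 genetic settings by the test of the difference (Klf10 -0.21 ± 0.27, adjusted p = 0.905; Zhx1 0.26 ± 0.39, adjusted p = 0.917).

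**Figure D2:**
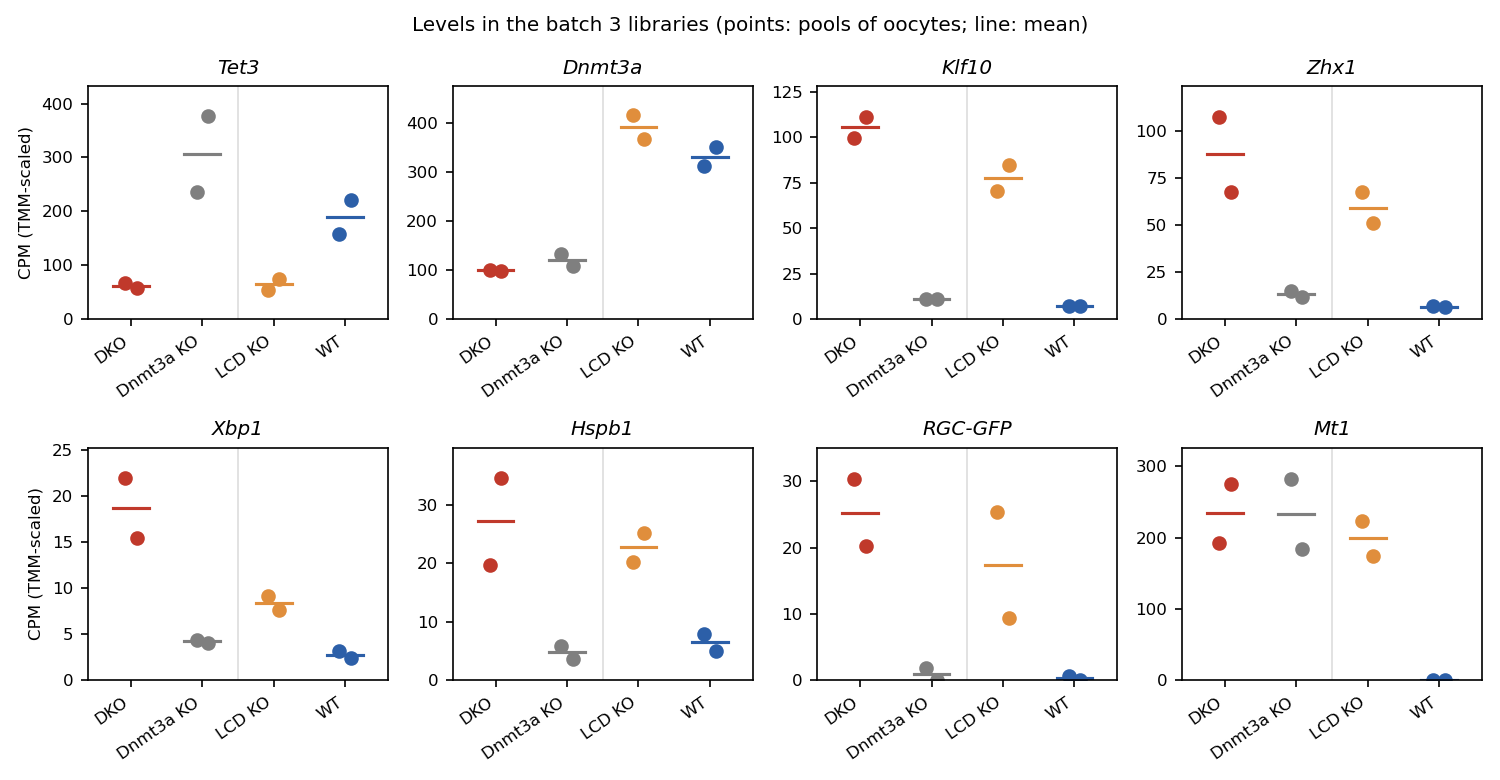
CPM of 8 genes or transgene sequences in the batch 3 libraries of DKO, Dnmt3a KO, LCD KO and WT, with 1 point per library and a line at the mean of 2. Klf10, Zhx1, Xbp1, Hspb1 and the GFP sequence (RGC-GFP) were higher in DKO than in Dnmt3a KO and higher in LCD KO than in WT, Tet3 was lower in both pairs, and Mt1 was near 0 in WT alone.

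The promoters of the 4 called genes with the smallest p among those with an entry in the RefSeq promoter table are shown, because CG dinucleotides, in capitals, are the main sites that Dnmt3a methylates and Tet3 oxidizes. The choice was made after the values were seen, and for Tmem53 it is 1 of 2 promoters listed. Each run is the 250 bases before the annotated start, 5′ to 3′ on the gene's strand, in build GRCm38.p6.
Pxdn (chr12:29937786-29938035, plus strand): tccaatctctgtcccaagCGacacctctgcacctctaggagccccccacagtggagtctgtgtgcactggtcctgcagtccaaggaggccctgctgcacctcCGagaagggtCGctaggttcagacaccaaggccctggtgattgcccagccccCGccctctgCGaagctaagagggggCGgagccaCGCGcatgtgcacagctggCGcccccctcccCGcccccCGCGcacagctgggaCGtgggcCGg
Krt12 (chr11:99422260-99422509, minus strand): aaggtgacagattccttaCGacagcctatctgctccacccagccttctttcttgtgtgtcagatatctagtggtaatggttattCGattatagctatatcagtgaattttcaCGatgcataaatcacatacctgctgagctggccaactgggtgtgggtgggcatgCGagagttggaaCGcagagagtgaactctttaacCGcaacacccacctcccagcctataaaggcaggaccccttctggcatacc
Tmem53 (chr4:117251701-117251950, plus strand): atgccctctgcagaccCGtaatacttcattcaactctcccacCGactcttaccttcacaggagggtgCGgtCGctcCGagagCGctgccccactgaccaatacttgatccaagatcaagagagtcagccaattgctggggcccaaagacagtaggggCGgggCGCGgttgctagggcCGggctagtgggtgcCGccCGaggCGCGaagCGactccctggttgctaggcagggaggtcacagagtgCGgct
Egfr (chr11:16751953-16752202, plus strand): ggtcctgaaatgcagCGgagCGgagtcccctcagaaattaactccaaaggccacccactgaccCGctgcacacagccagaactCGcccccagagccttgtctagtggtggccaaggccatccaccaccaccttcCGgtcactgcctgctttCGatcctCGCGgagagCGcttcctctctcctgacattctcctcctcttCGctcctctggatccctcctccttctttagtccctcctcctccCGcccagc

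These windows hold 14 CG dinucleotides at Pxdn, 6 at Krt12, 16 at Tmem53 and 11 at Egfr, where the median window of the RefSeq table holds 6 and 91.7% hold at least 1. The motif GGGCGG, read on both strands and itself spanning a CG, occurs 3 times at Pxdn, 2 times at Tmem53, once at Egfr and not at Krt12, and 32.9% of all windows hold it. The tested genes are richer in both: those with an entry had a median of 16 CG dinucleotides, and 57.5% held the motif, so the counts at the 4 promoters lie at or below that median. Only 78.7% of the tested genes had an entry, 76.2% of those called higher and 77.1% of those called lower. Called genes were not tested against other genes. Methylation was not measured in these libraries, and the genes moved in both directions. Pxdn and Tmem53, a transmembrane protein of the nuclear envelope, were higher in DKO, Tmem53 at 30.9 and 33.3 CPM in DKO and 6.66 and 6.26 CPM in Dnmt3a KO (log2 fold change 2.31, adjusted p = 0.00046). Krt12, a keratin of the corneal epithelium, was lower, at 26.8 and 27.9 CPM in DKO and 112 and 80.5 CPM in Dnmt3a KO (-1.81, adjusted p = 0.000189). So was Egfr, the epidermal growth factor receptor, at 10.9 and 18.2 CPM in DKO and 49.6 and 47.7 CPM in Dnmt3a KO (-1.76, adjusted p = 0.000681). No promoter of Klf10 or Zhx1 was matched.

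Several of the largest rises were of genes at or near 0 in Dnmt3a KO. Bfsp1, a lens beaded-filament protein, had 28.1 and 29.9 CPM in DKO and 0 counts in both Dnmt3a KO libraries, which makes it at least 70.7-fold higher if 0 is read as up to 3 counts over the group (adjusted p = 0.0359). It was also at 0 in the batch 3 libraries of LCD KO and WT and reached 9.96 CPM at most in the other LCD KO libraries. The libraries labelled Tet3 KO, also of batch 3, held Bfsp1 at 37.2 and 34.7 CPM, with Tet3 at 263 and 359 CPM. Pxdn, which encodes the matrix peroxidase that cross-links collagen IV, had 16 and 8.75 CPM in DKO and 0 counts in both Dnmt3a KO libraries, at least 31.4-fold higher (adjusted p = 1.76e-05). With Dnmt3a intact Pxdn was present on both sides, at 17.1 ± 2.62 CPM in LCD KO and 10.1 ± 1.35 CPM in WT of batch 3 (SD, n = 2 each). Npl, which breaks down sialic acid, had 0.76 and 2.69 CPM in DKO and 0 counts in both Dnmt3a KO libraries, at least 3.89-fold higher (adjusted p = 0.039). All 3 genes had counts in both DKO libraries and in neither Dnmt3a KO library. Pxdn passed without any 1 library, whereas the adjusted p of Bfsp1 was 0.0967 to 0.17 and that of Npl 0.0349 to 0.25 across those fits.

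Trim6, a tripartite-motif ubiquitin ligase, had 6.84 and 7.07 CPM in DKO and 0.37 and 0 CPM in Dnmt3a KO, where only 1 count was seen. The ratio of pooled counts was 50.9, with an exact 95% interval of 8.70 to 2051 that covers counting error only (adjusted p = 0.00183). Mpdu1, which is needed to use dolichol-linked mannose in glycosylation, had 3.29 and 5.72 CPM in DKO and 0 and 0.22 CPM in Dnmt3a KO, a ratio of 31.8 with an interval of 5.29 to 1297 (adjusted p = 0.0358). In both genes the groups were clear of each other at very low levels. Slc4a3, a chloride and bicarbonate exchanger, had 25.6 and 44.4 CPM in DKO and 2.22 and 0.43 CPM in Dnmt3a KO (4.91 ± 1.13, adjusted p = 0.0359). Rassf4, a Ras-association protein, had 16.2 and 14.8 CPM in DKO and 0.37 and 1.73 CPM in Dnmt3a KO (3.68 ± 0.74, adjusted p = 0.00797). Itgb4, the beta-4 subunit of the hemidesmosome integrin, had 11.9 and 11.8 CPM in DKO and 1.11 and 1.73 CPM in Dnmt3a KO (2.98 ± 0.69, adjusted p = 0.0222). The groups did not overlap in these genes, as in 20.6% of all genes tested, and the DKO libraries lay close in Rassf4 and Itgb4. Without 1 library the log2 fold change was 3.95 to 6.24 for Slc4a3, 3.15 to 5.29 for Rassf4 and 2.76 to 3.38 for Itgb4. These ranges give the size of the change only. Slc4a3, Itgb4 and Mpdu1 lost their call whichever library was left out, and the call of Rassf4 depended on which it was. With Dnmt3a intact Slc4a3 was lower in LCD KO of batch 3, at 3.35 ± 0.66 CPM against 10.9 ± 0.21 CPM in WT (SD, n = 2 each). Over all batches its log2 fold change there was 0.81 (edgeR adjusted p = 0.448). Fbxl21, an F-box protein that binds cryptochromes, had 9.37 and 6.73 CPM in DKO and 2.22 and 0.22 CPM in Dnmt3a KO (2.97 ± 0.67, adjusted p = 0.0174), and Riiad1 rose by 2.88 ± 0.72 (adjusted p = 0.0356). Sectm1a (4.02 ± 1.04, adjusted p = 0.0473) and Hist1h4d, a histone H4 gene (3.13 ± 0.68, adjusted p = 0.0141), also passed, but both have close copies in the genome whose reads the counting may have split.

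A sequence listed as RGC-GFP was also among the largest rises, with 30.4 and 20.2 CPM in DKO and 1.85 and 0 CPM in Dnmt3a KO (5.08 ± 0.90, adjusted p = 0.00443). It stood at 17.4 ± 11.4 CPM in LCD KO and 0.32 ± 0.45 CPM in WT of batch 3 (SD, n = 2 each). In batch 3 the libraries with the floxed LCD and Cre held it and the others scarcely did, while over all 7 LCD KO libraries it ranged between 0 and 25.4 CPM. The call was lost without Dnmt3a KO 2 (adjusted p = 0.0757), in batch 3 only (adjusted p = 0.0645), by DESeq2 (adjusted p = 0.252) and without the batch term (adjusted p = 0.479). The labels name no GFP in any genotype. The Cre sequence, listed as RGC-CRE, had 21.5 and 12.8 CPM in DKO and 21.5 and 19.21 CPM in Dnmt3a KO (-0.23 ± 0.34, adjusted p = 0.83) and overlapped between the groups.

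Among the falls, Reg2, a member of the regenerating-islet lectin family with close paralogs, had 0 counts in both DKO libraries and 9.99 and 3.67 CPM in Dnmt3a KO, at least 13.8-fold lower (adjusted p = 0.0222). It was at 0 in every LCD KO library and at 0.32 CPM at most in WT. Reg2 was thus detected above that level in Dnmt3a KO alone among these 4 groups. On its chromosome Reg2 is among the 50 tested genes nearest to Tet3. Manba, the lysosomal beta-mannosidase, had 0.25 and 0.34 CPM in DKO and 10.4 and 9.28 CPM in Dnmt3a KO. With 2 counts left in DKO its ratio was 0.0299, with an interval of 0.00355 to 0.112 (adjusted p = 0.00163), and it passed in all 4 fits without a library. Cldn9, a tight-junction claudin, had 0.51 and 0.34 CPM in DKO and 5.92 and 6.48 CPM in Dnmt3a KO, a ratio of 0.0691 with an interval of 0.0138 to 0.215 (adjusted p = 0.0141). Plek, the protein kinase C substrate pleckstrin, had 0.76 and 0.34 CPM in DKO and 7.03 and 9.28 CPM in Dnmt3a KO (-3.78 ± 0.65, adjusted p = 0.00183).

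Of the larger falls, Gli3 had the highest level in Dnmt3a KO. Gli3, a zinc finger factor of hedgehog signalling, had 4.81 and 14.8 CPM in DKO and 69.2 and 42.7 CPM in Dnmt3a KO (-2.54 ± 0.59, adjusted p = 0.0288). Ednrb, the endothelin receptor type B, had 2.28 and 1.35 CPM in DKO and 9.25 and 16.4 CPM in Dnmt3a KO (-2.79 ± 0.53, adjusted p = 0.00443). Cdh4, R-cadherin, had 2.28 and 1.01 CPM in DKO and 10.4 and 10.8 CPM in Dnmt3a KO (-2.61 ± 0.45, adjusted p = 0.00183), and it passed without any 1 library. The groups stood apart in all 3 genes, and Ednrb and Cdh4 had fewer than 10 counts in each DKO library. Of 91 lineage transcription factors of somatic tissues on a list, 26 passed the filter, 2 fell and 0 rose, where 0.924% of all genes tested fell and 1.07% rose. The median log2 fold change of the 26 was -0.07 against -0.00 over all genes tested. The pair comprised Isl1, a LIM homeodomain factor, at 0.51 and 0.67 CPM in DKO and 6.66 and 3.67 CPM in Dnmt3a KO (-3.05 ± 0.69, adjusted p = 0.0176), and Tcf4, a basic helix-loop-helix factor, at 0.51 and 0 CPM in DKO and 3.33 and 5.61 CPM in Dnmt3a KO (ratio 0.0606, interval 0.00706 to 0.236, adjusted p = 0.0276). The 15 largest falls also held Pdgfrl (-3.37), Fam124a (-3.09), Mfhas1 (-2.85), Zfp385b (-2.79), Faxc (-2.59) and Oit1 (-2.54). Without 1 library 4 to 9 of these 15 falls and 4 to 10 of the 15 largest rises still passed, fewest for the falls without DKO 1 and for the rises without Dnmt3a KO 2.

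**Figure D3:**
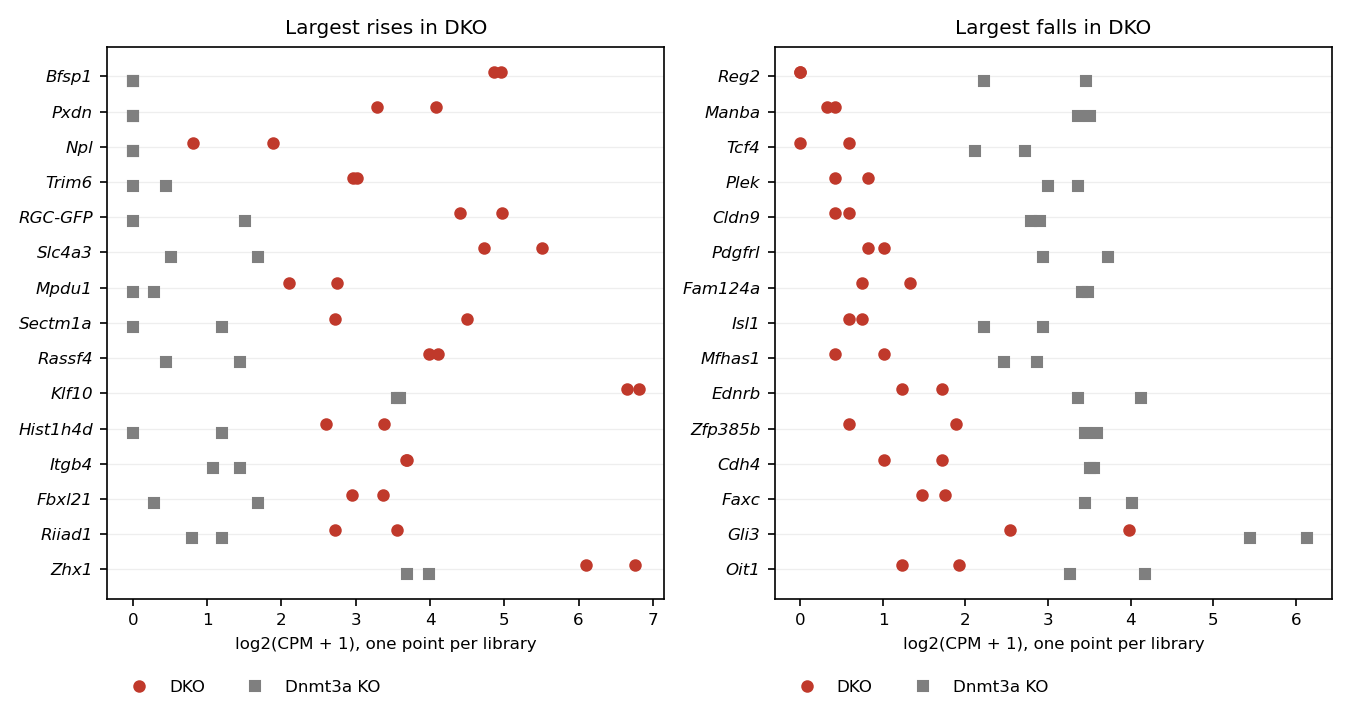
Levels of the 15 largest rises (left) and the 15 largest falls (right) among called genes, on a log2(CPM + 1) scale, with DKO libraries as red circles and Dnmt3a KO libraries as grey squares, 2 of each per gene. No circle lies between the squares of its gene, and the Dnmt3a KO squares of Bfsp1, Pxdn and Npl sit at 0.

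The most abundant called genes changed less. Zc3h6, a CCCH zinc finger protein, had 385 and 367 CPM in DKO and 776 and 885 CPM in Dnmt3a KO (-1.14 ± 0.23, adjusted p = 0.00797). Ggct, gamma-glutamylcyclotransferase of the glutathione cycle, had 201 and 176 CPM in DKO and 439 and 411 CPM in Dnmt3a KO (-1.17 ± 0.23, adjusted p = 0.00783). Imp4, a component of the U3 ribonucleoprotein that processes ribosomal RNA, had 451 and 605 CPM in DKO and 322 and 234 CPM in Dnmt3a KO (0.93 ± 0.23, adjusted p = 0.0315). The gap between the groups of Imp4 was no wider than the spread within DKO. Pdcd6, a calcium-binding protein, had 254 and 267 CPM in DKO and 120 and 109 CPM in Dnmt3a KO (1.19 ± 0.25, adjusted p = 0.0111). Ube2w, an ubiquitin-conjugating enzyme that modifies N-termini, fell by 0.69 (adjusted p = 0.0407), the smallest called change, Gmnn, the replication inhibitor geminin, fell by 0.85 (adjusted p = 0.0375), and Pfdn1, a prefoldin subunit, fell by 0.81 (adjusted p = 0.0173). Sumo3 rose by 0.75 (adjusted p = 0.0488). Naip1 rose by 1.12 (adjusted p = 0.0371), with close paralogs that may share its reads. Without 1 library 1 to 4 of the 10 most abundant called genes, Tet3 among them, still passed, 1 of them without DKO 2.

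Stress-response genes were read from lists. Of 33 measured genes of the unfolded protein response, 2 rose, 0 fell and 31 did not pass, where 1.07% of all genes tested rose and 0.924% fell. The median log2 fold change of the 33 was 0.26 against -0.00 over all genes. The riser with the smaller p was Xbp1, the transcription factor activated by IRE1 splicing, at 22 and 15.5 CPM in DKO and 4.44 and 4.10 CPM in Dnmt3a KO (2.14 ± 0.38, adjusted p = 0.00251). Edem1, which sends misfolded glycoproteins to degradation, had 56.7 and 49.8 CPM in DKO and 16.7 and 20.9 CPM in Dnmt3a KO (1.49 ± 0.37, adjusted p = 0.0355). In 15 of the 33 genes both DKO libraries were higher than both Dnmt3a KO libraries, against 20.6% of all genes, and in 0 were both lower, against 18.8%. Members that did not pass included Calr, calreticulin, at 185 and 165 CPM in DKO and 99.9 and 100 CPM in Dnmt3a KO (0.81, adjusted p = 0.0843), and Hspa5, the chaperone BiP, at 424 and 507 CPM in DKO and 263 and 378 CPM in Dnmt3a KO (0.54, adjusted p = 0.267). Of 32 heat shock and chaperone genes, 2 rose and 0 fell, against the same shares of all genes (1.07% and 0.924%), with a median of -0.00. They were the small heat shock protein Hspb1, at 19.7 and 34.7 CPM in DKO and 5.92 and 3.67 CPM in Dnmt3a KO (2.54 ± 0.39, adjusted p = 0.000811), and Hspa13, at 33.2 and 29.9 CPM in DKO and 10.7 and 12.1 CPM in Dnmt3a KO (1.46 ± 0.33, adjusted p = 0.0173). Hspb1 passed without any 1 library; Xbp1 missed the threshold without Dnmt3a KO 2 (adjusted p = 0.0563), and Edem1 and Hspa13 missed it in all 4 such fits (adjusted p 0.0906 to 0.167 and 0.057 to 0.101).

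Of 30 measured genes of the p53 list, 3 rose, 0 fell and 27 did not pass, against 1.07% and 0.924% of all genes that rose and fell, and the median was 0.28 against -0.00 over all genes. Trp53 itself, the gene of the p53 tumour suppressor, had 25.8 and 17.2 CPM in DKO and 8.14 and 6.69 CPM in Dnmt3a KO (1.56 ± 0.35, adjusted p = 0.0186). Sesn1, a sestrin that restrains mTOR signalling, had 15.4 and 11.1 CPM in DKO and 2.22 and 3.67 CPM in Dnmt3a KO (2.12 ± 0.54, adjusted p = 0.0359). Trp53inp1, a stress-induced p53 partner, had 148 and 142 CPM in DKO and 81.8 and 89.8 CPM in Dnmt3a KO (0.76 ± 0.20, adjusted p = 0.0403). The groups did not overlap in these 3 genes, as in every called gene. In 12 of the 30 genes both DKO libraries were higher than both Dnmt3a KO libraries, against 20.6% of all genes. In 6 both were lower, against 18.8%. Members that did not pass included the classic p53 targets Cdkn1a (0.06, adjusted p = 0.985), Mdm2 (0.26, adjusted p = 0.614) and Ccng1 (1.03, adjusted p = 0.28). Trp53 passed in 1 of the 4 fits without a library, and Sesn1 and Trp53inp1 in 0, with adjusted p of 0.0325 to 0.206, 0.0732 to 0.211 and 0.124 to 0.181.

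Of 26 genes of the KLF family and of TGF-beta responses, 2 rose and 0 fell, against 1.07% and 0.924% of all genes, and the median was -0.05 against -0.00. Besides Klf10 the riser was Klf11, a close relative of Klf10, at 96.5 and 87.5 CPM in DKO and 34.0 and 57.0 CPM in Dnmt3a KO (1.0 ± 0.24, adjusted p = 0.0276, and 0.018 to 0.214 without 1 library). Zhx1 was the only 1 of 6 measured ZHX and related zinc finger homeobox genes to pass, and Zhx3 had a log2 fold change of 0.08 (adjusted p = 0.954). Of 36 genes of glutathione and antioxidant defence, 1 rose and 1 fell, where 1.99% of all genes were called in either direction, with a median of -0.01. Gstp1, a glutathione transferase with a near-identical neighbour, had 72.2 and 49.5 CPM in DKO and 23.7 and 20.9 CPM in Dnmt3a KO (1.46 ± 0.33, adjusted p = 0.0174). Hmox2, the constitutive haem oxygenase, had 13.4 and 14.1 CPM in DKO and 47.0 and 35.4 CPM in Dnmt3a KO (-1.57 ± 0.32, adjusted p = 0.00811). Each passed in 1 of the 4 fits without a library, Gstp1 without DKO 2 and Hmox2 without Dnmt3a KO 2, with adjusted p of 0.0325 to 0.182 for Gstp1 and 0.0207 to 0.0805 for Hmox2.

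Of 54 measured oocyte and maternal-effect genes 0 passed in either direction, near the 1.99% of all genes that did, and their median log2 fold change was -0.14. In LCD KO against WT, where 9.44% of all genes fell and 8.89% rose, 21 of the same 54 genes fell and 0 rose, with a median of -0.29. Mos, a MAPK-activating kinase of meiotic maturation, had 553 and 491 CPM in DKO and 1179 and 636 CPM in Dnmt3a KO (-0.80 ± 0.22, adjusted p = 0.0526). Cpeb1, which controls cytoplasmic polyadenylation, had 687 and 633 CPM in DKO and 628 and 1079 CPM in Dnmt3a KO (-0.37 ± 0.25, adjusted p = 0.527). Mos was lower in both DKO libraries, and Cpeb1 overlapped between the groups. Whether the list behaved differently in the 2 genetic settings was not tested as a list, and no member passed the test of the difference for its own gene. The lists of maternal mRNA storage and decay (42 measured), meiotic maturation (50), 2-cell genome activation (13), histone modification (51), base excision repair (24), apoptosis (25), ribosomal proteins (75) and the nuclear-encoded respiratory chain (73) also had 0 called members, with medians between -0.19 and 0.18. The same held for 28 imprinted genes with maternal germline methylation (median -0.19) and for 23 partners of DNA methylation and imprint protection (median 0.07). Of 50 genes of meiotic prophase and methylation-sensitive germline genes, 1 rose: Mael, of the piRNA pathway that silences transposons, with 131 and 171 CPM in DKO and 98.1 and 74.3 CPM in Dnmt3a KO (0.81 ± 0.21, adjusted p = 0.039, and 0.0487 to 0.283 without 1 library).

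**Figure D4:**
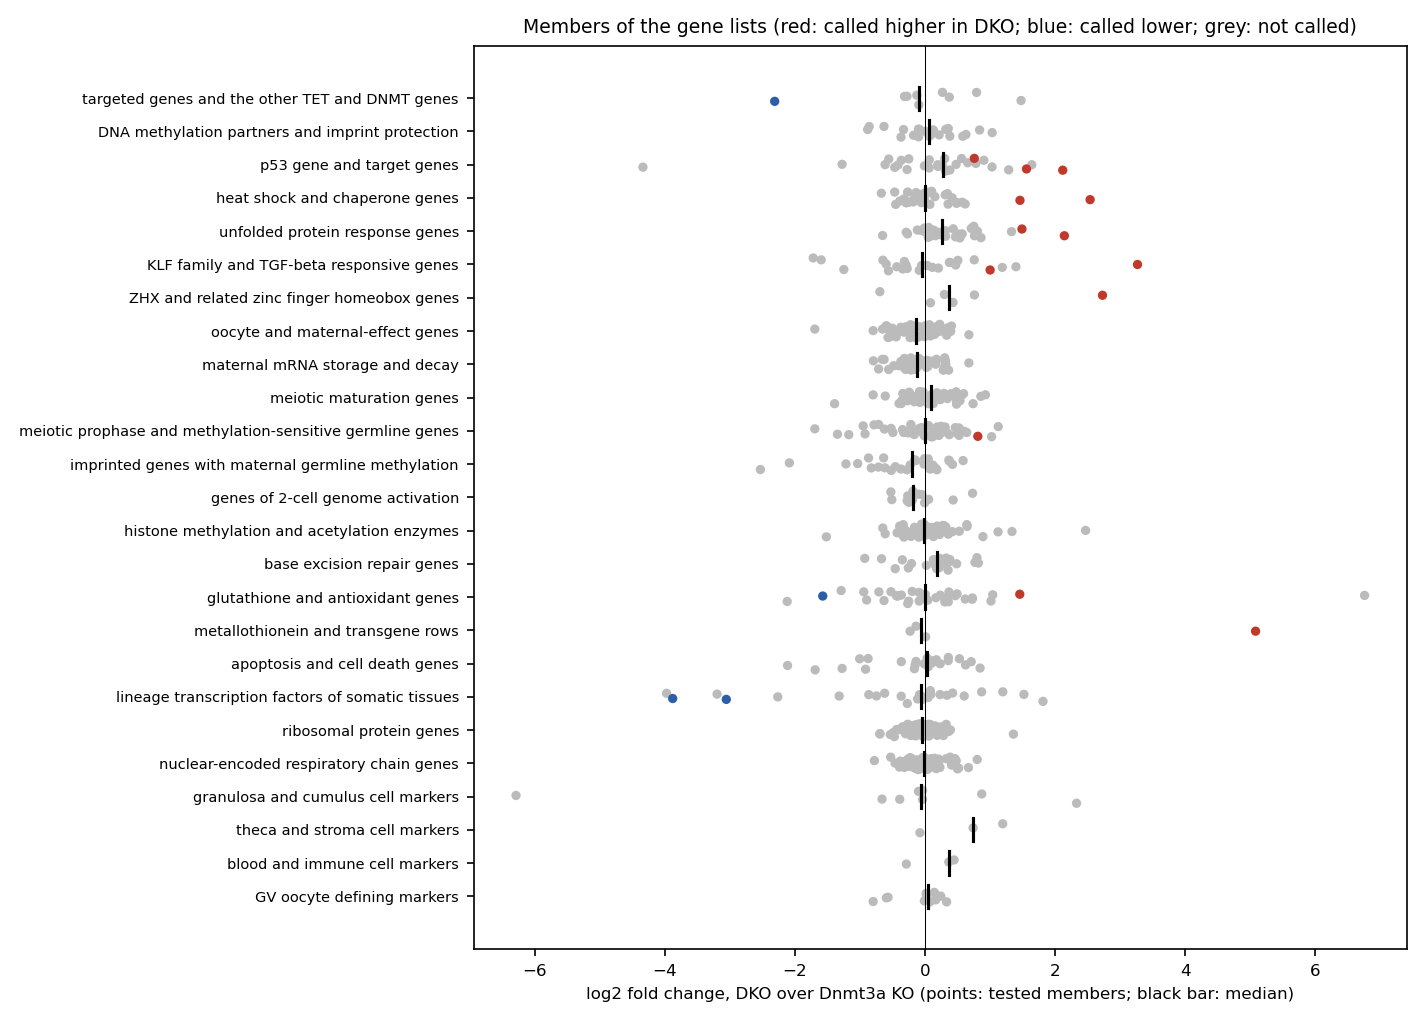
Log2 fold change of DKO over Dnmt3a KO for every tested member of each gene list, 1 point per gene, with a black bar at the list's median. Red points passed the test as higher in DKO, blue points as lower and grey points did not pass; 4 stress, p53 and KLF lists hold 2 or 3 red points each, and the oocyte, maturation, imprinted, ribosomal and respiratory lists hold none.

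Most genes that changed on losing the Tet3 domain without Dnmt3a also moved when it was lost with Dnmt3a intact. LCD KO differed from WT in 2162 of 11794 genes (18.3%), 1049 higher (8.89%) and 1113 lower (9.44%). Of the 126 genes higher in DKO, 90 were also called higher in LCD KO (71.4%), and of the 109 lower in DKO, 74 were also called lower (67.9%). In all 165 genes were called in both comparisons, 70.2% of the 235 and 7.63% of the 2162, and 164 of them in the same direction. Without regard to the call, 116 of the 126 and 102 of the 109 had the same sign in LCD KO against WT. Median log2 fold changes of these genes were 1.46 and -1.57 in DKO against Dnmt3a KO, by which they had been selected, and 0.88 and -0.73 in LCD KO against WT. Read the other way, 939 of the 1049 genes higher in LCD KO and 942 of the 1113 lower had the same sign in DKO against Dnmt3a KO, with medians of 0.52 and -0.40 there. Over all 11794 genes the log2 fold changes of the 2 comparisons had a Pearson r of 0.477 and a Spearman rho of 0.461, as a description across genes that are not independent replicates.

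The 2 comparisons share no library, but both use batch 3, so LCD KO and WT were also compared in a fit of batches 1 and 2 only. That fit also held HD mutant libraries 1 to 3, which entered through the filter, the scaling, the batch term and the shared spread. In that comparison 7.22% of 11388 genes were called higher in LCD KO and 7.6% lower. Of 124 measured genes higher in DKO, 82 were called higher there and 113 had the same sign, and of 106 lower in DKO, 60 were called lower and 97 had the same sign. Pearson r across genes was 0.425. Within batch 3 alone, LCD KO and WT had 2 libraries each and 88 genes were called. The LCD KO comparison also sets Zp3-Cre against no Cre, which the DKO comparison does not.

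**Figure D5:**
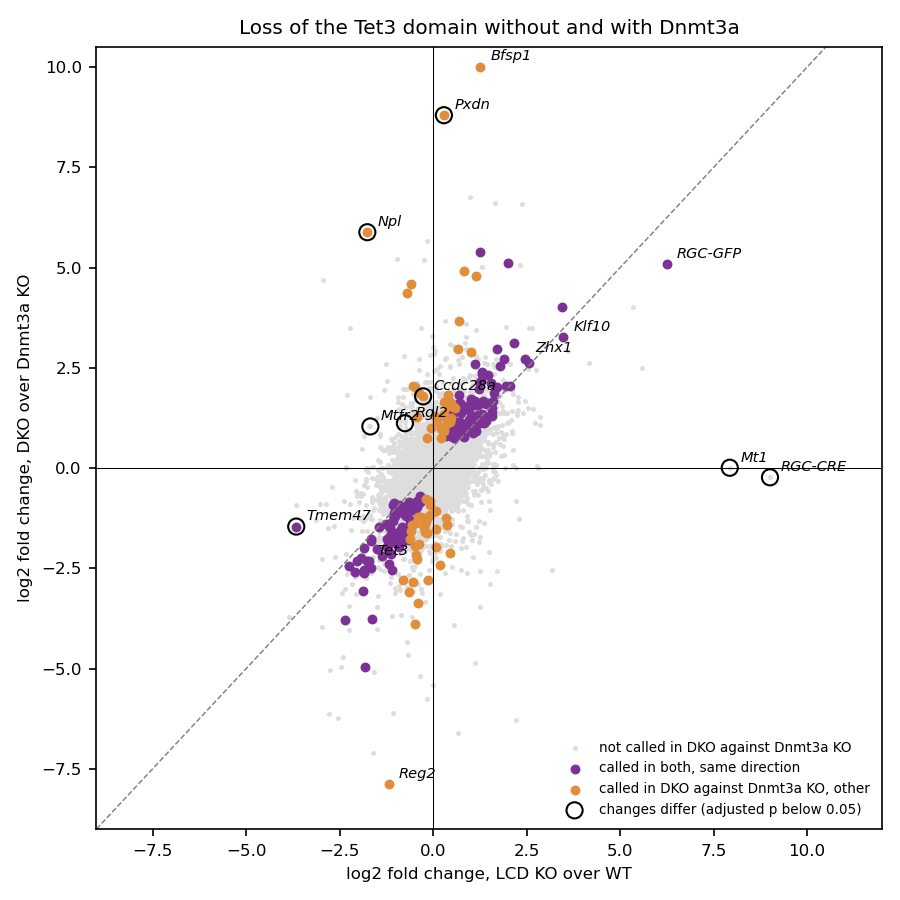
Log2 fold change of DKO over Dnmt3a KO (vertical) against that of LCD KO over WT (horizontal) for 11794 genes, with the dashed line where the 2 are equal. Purple points are the 164 genes called in both in the same direction, orange points the other genes called in DKO against Dnmt3a KO, and rings mark the 8 genes whose 2 changes differed in the test of the difference.

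Few genes were called in the test of whether a change differed between the 2 settings. The difference between the 2 changes was called for 8 of 11794 genes (0.0678%), 6 with a positive (0.0509%) and 2 with a negative difference (0.017%), and 779 genes had an unadjusted p below 0.05. Of the 70 genes called in DKO against Dnmt3a KO and not in LCD KO against WT, only Pxdn and Ccdc28a were called in this test, so for the other 68 a difference between the settings was not shown. Mt1, a metallothionein, and RGC-CRE had the negative differences. Mt1 had 193 and 276 CPM in DKO, 283 and 184 CPM in Dnmt3a KO, 199 ± 35.1 CPM in LCD KO of batch 3 and 1.01 ± 0.09 CPM in WT of batch 3 (SD, n = 2 each). Mt1 was thus level in the 3 groups that carry Zp3-Cre and near 0 in WT, which does not, and RGC-CRE had 0 counts in WT and between 0 and 21.5 CPM in the 7 LCD KO libraries. The presence of Cre and the loss of the Tet3 domain cannot be told apart for Mt1 in LCD KO against WT.

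The positive differences fell into several patterns. Pxdn was absent from Dnmt3a KO and present in DKO, LCD KO and WT, as given above (difference 8.51 ± 1.09, adjusted p = 0.000102). Npl shared the absence from Dnmt3a KO but moved the opposite way with Dnmt3a intact, at 2.27 ± 0.53 CPM in LCD KO (SD, n = 7) and 7.37 ± 1.62 CPM in WT (SD, n = 6), and was the 1 gene called in opposite directions (difference 7.64 ± 1.43, adjusted p = 0.0273). Ccdc28a, a coiled-coil gene, had 51.1 and 53.5 CPM in DKO and 16.7 and 13.8 CPM in Dnmt3a KO (1.79 ± 0.28, adjusted p = 0.000811), and averaged 25.6 ± 2.72 CPM in LCD KO and 29.9 ± 7.66 CPM in WT (difference 2.06 ± 0.31, adjusted p = 0.00119). Ccdc28a passed here without any 1 library. Mtfr2, a mitochondrial fission regulator, had 520 and 369 CPM in DKO and 242 and 191 CPM in Dnmt3a KO (1.04 ± 0.30, adjusted p = 0.0651), and 27.1 ± 9.14 CPM in LCD KO and 78.4 ± 10.3 CPM in WT of batch 3 (difference 2.72 ± 0.35, adjusted p = 0.000102). Rgl2, a Ral exchange factor, had 28.4 and 17.2 CPM in DKO and 11.8 and 9.5 CPM in Dnmt3a KO (1.12 ± 0.31, adjusted p = 0.0567), and its change differed by 1.87 ± 0.36 (adjusted p = 0.0276). Tmem47, a junction membrane protein, fell in both settings by different amounts. It had 9.87 and 12.5 CPM in DKO and 23.3 and 37.1 CPM in Dnmt3a KO (-1.46 ± 0.34, adjusted p = 0.022), against 1.93 ± 1.43 CPM in LCD KO (SD, n = 7) and 25.3 ± 8.60 CPM in WT (SD, n = 6; -3.66, adjusted p = 1.58e-11), a difference of 2.20 ± 0.42 (adjusted p = 0.0273). Ednrb (-2.66), Myo1e (-1.59), Mettl7a1 (-2.59) and Lyplal1 (-1.79), which were lower in DKO and not called in LCD KO, had adjusted p of 0.114, 0.114, 0.0927 and 0.0525 for the difference. Without Dnmt3a KO 2 the number of positive differences called fell to 3.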

How the data were processed

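The 4 batch 3 libraries of DKO and Dnmt3a KO were compared within a fit over 22 of the 26 libraries of the series, those with a stated batch. The fit also held LCD KO, WT, HD mutant libraries 1 to 3 and the 2 libraries labelled Tet3 KO. HD mutant and Tet3 KO libraries entered only through the filter, the scaling, the batch terms and the shared spread. Members and gene lists were chosen with earlier results of these data known. The authors deposited raw read counts per gene, 24542 features in all. Per the submitters' processing notes the tools were Trim Galore 0.5.0, HISAT2 2.1.0 and featureCounts 1.6.4, with build mm9. The sources used here do not give the annotation, the strand setting or the handling of reads that match several places. Genes with close copies or antisense partners are therefore uncertain. Removing 92 ERCC spike-in features left 24450.

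Genes were filtered by filterByExpr, scaled by TMM and tested by edgeR's quasi-likelihood F test (edgeR 4.0.16, limma 3.58.1, R 4.3.3) with group and batch as terms and 14 residual degrees of freedom. Contrasts were DKO minus Dnmt3a KO, LCD KO minus WT, and the difference between these, each adjusted by Benjamini-Hochberg over all 11794 genes at 0.05. The script was tested on simulated data. A group at 0 counts was given a floor of 3 counts over the group, and ratios with 1 to 3 counts on one side have exact 95% intervals, which cover counting error only. Fitted values of such genes depend on the prior count.

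Named genes were Tet3, Dnmt3a, Klf10, Zhx1 and the Cre, GFP and Mt1 rows, the 15 largest called rises and 15 largest called falls, the 10 most abundant called genes, called list members and the 6 genes of each sign with the smallest p for the difference, with a regular symbol, no overlap and a mean of at least 1 CPM. Other genes were chosen after their values were seen. No deposited column lacked a sample. No replicate pair of the compared groups agreed within counting noise. The columns labelled TKO repeated those labelled Tet3 KO and were left out.

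Same-numbered DKO and Dnmt3a KO libraries share no stated animal, litter or day. Alternatives were other scalings, DESeq2 1.42.0, other filters, fits without the batch term or on fewer libraries, a replicate block, and leaving out each library.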

Additional observations from a re-analysis of the deposited data

Results flagged for a closer look

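Of 120 pairs of a named gene and a group of LCD KO or WT libraries, 16 had an outlying library. Its distance from the nearest other library took up an unusually large part of the group's range. The cut-off is passed by chance in about 1 in 20 groups of normally distributed values. These groups pool 3 batches and include genes near 0 counts, so the chance rate here is not known. In 8 of the 16 the outlying library was WT 4, the only WT library of batch 2. The library and its batch cannot be told apart. WT 4 had 624 CPM of Dnmt3a, with the next WT library at 349 CPM. It had 94.1 CPM of Edem1 (next 37.4), 7.39 CPM of Ednrb (next 4.11), 1.08 CPM of Mpdu1 (next 0.32), 47.2 CPM of Pxdn (next 18.4), 21.6 CPM of Rassf4 (next 2.21), 69.2 CPM of Rgl2 (next 22.2) and 97.0 CPM of Trp53inp1 (next 78.3). WT 4 enters DKO against Dnmt3a KO only through the spread shared by the 22 libraries of the fit, and it enters the LCD KO against WT side of every difference given below. The adjusted p of Edem1 in DKO against Dnmt3a KO was 0.0355 in that fit and 0.00479 in batch 3 only.

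The other 5 in WT were Fam124a at 2.16 CPM in WT 6 (next 0), Faxc at 17.1 CPM in WT 5 (next 10.4), the GFP sequence at 0.63 CPM in WT 5 (next 0), Reg2 at 0.32 CPM in WT 2 (next 0) and Sectm1a at 6.20 CPM in WT 6 (next 2.21). In LCD KO, Cldn9 stood at 2.19 CPM in library 1 (next 0.83), the GFP sequence at 25.4 CPM in library 6 (next 10.6) and Tcf4 at 4.70 CPM in library 4 (next 2.22).

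The change between DKO and Dnmt3a KO differed from that between LCD KO and WT in 8 genes by the edgeR test of the difference. On the log2 scale the difference was -7.92 for Mt1 (adjusted p = 1.26e-13), -9.24 for RGC-CRE (adjusted p = 8.67e-07), 8.51 for Pxdn (adjusted p = 0.000102) and 2.72 for Mtfr2 (adjusted p = 0.000102). It was 2.06 for Ccdc28a (adjusted p = 0.00119), 7.64 for Npl (adjusted p = 0.0273), 2.20 for Tmem47 (adjusted p = 0.0273) and 1.87 for Rgl2 (adjusted p = 0.0276). For Mt1 and RGC-CRE the WT side lacks Cre, while both DKO and Dnmt3a KO carry it.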

How the results depend on the processing

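Every one of the 235 genes kept its sign in each alternative where it was tested. Their groups did not overlap, so leaving out a library could not have reversed a sign. Of DKO against Dnmt3a KO, 378 genes (193 higher, 185 lower) were called by DESeq2, 449 (196, 253) with no filter on low counts, 132 (69, 63) on the 4 libraries alone and 20 (11, 9) without the batch term. Leaving out 1 library gave 78 to 115 calls (31 to 61 higher, 30 to 54 lower). The higher share was 53.6% of calls, 43.7% with no filter. LCD KO against WT gave 544 calls (310, 234) without the batch term and 88 (51, 37) in batch 3 only. The difference between the changes was called for 33 genes (19, 14) by DESeq2, 70 (33, 37) with no filter, 3 (2, 1) without the batch term and 13 (10 positive) in batch 3 only, and leaving out 1 library gave 3 to 4 positive ones. Genes called in both comparisons in the same direction numbered 255 by DESeq2, 263 with no filter, 16 without the batch term and 34 in batch 3 only. The cause of these moves was not tested.

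The deviations of same-numbered libraries correlated at 0.0133 across 9100 genes. With 2 libraries a group this cannot show whether numbers 1 and 2 pair the libraries. With the number as a replicate block on the 4 libraries 188 genes were called, 135 of the 235 among them, and with a replicate block in batch 1 LCD KO against WT gave 2442. Without the libraries labelled Tet3 KO, an alternative chosen after seeing the data, 204 were called. Mt1, not called, changed sign: -0.000869 with RLE factors, -0.000642 with upper-quartile factors, -0.00133 by DESeq2, -0.0060 with no filter, -6.10e-05 at a mean of at least 5 CPM, and -0.27 to 0.35 without 1 library. RGC-CRE lay between -0.67 and 0.0897 without 1 library. With 2 pools a group and 2558479 to 4144414 counts a library, smaller changes and changes in genes of a few counts can have been missed.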

Other observations

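Some called genes outside the named sets were chosen here after their values were seen. Of those lower in DKO, Tnfsf11, the ligand of RANK, had 8.36 and 15.1 CPM in DKO and 51.8 and 39.7 CPM in Dnmt3a KO (-1.97, adjusted p = 0.0111), with a log2 fold change of 0.08 in LCD KO against WT. Fgf9, a fibroblast growth factor, had 6.08 and 7.07 CPM in DKO and 22.9 and 22 CPM in Dnmt3a KO (-1.78, adjusted p = 0.00826). Lrp6, a Wnt co-receptor, had 72.9 and 71.3 CPM in DKO and 132 and 149 CPM in Dnmt3a KO (-0.96, adjusted p = 0.0276), and Prlr, the prolactin receptor, 24.6 and 23.9 CPM in DKO and 42.9 and 56.6 CPM in Dnmt3a KO (-1.04, adjusted p = 0.0356). The circadian factor Clock had 34.7 and 28.9 CPM in DKO and 61.8 and 75.8 CPM in Dnmt3a KO (-1.11, adjusted p = 0.0375).

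Of those higher in DKO, Qdpr, which regenerates tetrahydrobiopterin, had 68.4 and 53.8 CPM in DKO and 21.1 and 21.2 CPM in Dnmt3a KO (1.53, adjusted p = 0.00183). Gcat, of threonine and glycine metabolism, had 159 and 226 CPM in DKO and 94.4 and 63.9 CPM in Dnmt3a KO (1.29, adjusted p = 0.00312). Qdpr and Arl13b passed in each fit that left out 1 of the 4 libraries, Tnfsf11, Fgf9 and Gcat in 2 of the 4, Prlr and Ccne1 in 1, and Lrp6 and Clock in 0 (adjusted p 0.0601 to 0.15 for Lrp6 and 0.0635 to 0.226 for Clock). Ccne1, cyclin E1, had 50.1 and 25.6 CPM in DKO and 11.5 and 12.3 CPM in Dnmt3a KO (1.67, adjusted p = 0.00541), and Arl13b, a small GTPase of the ciliary membrane, 42.8 and 65.6 CPM in DKO and 16.7 and 20.9 CPM in Dnmt3a KO (1.51, adjusted p = 0.00163).

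The chromosomal surroundings of Tet3 were read because the engineered Tet3 allele distinguishes the groups. Of the 20 tested genes nearest to Tet3, 2 were called (10%: Actg2 and Stambp, both higher in DKO). Of the 50 nearest 3 were called (6%), with Reg2, lower in DKO, as the third. Of the 100 nearest 4 were called (4%), against 1.97% of the 11778 tested genes with a known place. Whether these calls come from the surroundings of the allele was not tested. The strain background of the animals was not analysed here.

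Bfsp1, at 0 counts in both Dnmt3a KO libraries and in LCD KO and WT of batch 3, had 37.2 and 34.7 CPM in the libraries labelled Tet3 KO, where Tet3 stood at 263 and 359 CPM and Dnmt3a at 143 and 105 CPM.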
